A study of Mus musculus with 28 samples.

Results

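Untreated APOE3 microglia were sequenced as 6 libraries that carried 2 kinds of title, and the values of these 6 libraries are described here, out of 28 libraries in the series. The rule for the members used labels and no measured value: genotype WT, treatment Control and a title that ends in SAN (E3B1SAN, E3B2SAN and E3B3SAN) or, as a plain title, in a number after a low line (E3_1, E3_2 and E3_3), 3 libraries of each kind. Genes of chromosomes X and Y were left out. All 6 were primary microglia from APOE3 mice that received neither tau nor amyloid, so genotype, cell type and treatment were the same on both sides by the labels. The titles do not say what the endings stand for, and neither age, sex nor the number of animals per library was given in the labels. The series also holds APOE3S/S microglia, labelled Christchurch, and cells of both genotypes given tau or amyloid. Of these, 16 libraries of the same table served for comparison: untreated APOE3S/S (2 with SAN titles and 2 with plain ones), tau-treated APOE3 (3 and 3) and tau-treated APOE3S/S (3 and 3). Anything that differs with the kind of title cannot be told apart here. The labels do not say whether libraries of a group came from separate animals or cultures, so the p-values below measure the spread between libraries, which may be technical.

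Microglia are the resident macrophages of the brain and depend on signalling through the Csf1 receptor. In culture they lose much of the expression of the genes that mark them in the healthy brain, and they readily shift toward inflammatory, interferon-driven, lipid-handling or proliferating states. A baseline of untreated cells is the level against which treated or mutant cells are read, and the comparison asks how far that level differed between libraries of the same stated kind. A 3′ tag library was sequenced for each sample, in which each transcript gives about 1 tag whatever its length, so counts scaled to a common library total (CPM) follow the number of transcripts.

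The 3 SAN libraries held 14702542 to 17546369 counts and the 3 plain libraries 15931619 to 26442440, with 17267 to 19048 genes detected in a library. Mitochondrial transcripts took 1.17 to 1.71% of counts and the 10 most abundant genes 12.8 to 15.1%, in the 6 libraries. Over 12358 tested genes, the root mean squared log2 difference was 0.306 to 0.489 between 2 libraries of the same kind of title and 0.543 to 0.658 between libraries of different kinds, so every pair across the titles lay farther apart than every pair within them. The label of microglia was checked against marker genes. Csf1r stood at 2023 to 2362 CPM and Trem2 at 929 to 1281 CPM, while Cx3cr1 lay at 49.4 to 86.1 CPM, P2ry12 at 9.4 to 15 CPM and Tmem119 at 0.912 to 3.95 CPM, and Siglech was at 0 in all 6 libraries.

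Of the 12358 genes, 1392 (11.3%) differed between SAN and plain libraries at an adjusted p below 0.05 in edgeR's quasi-likelihood test with Benjamini-Hochberg adjustment. In the SAN libraries 630 genes (5.1%) were higher and 762 (6.17%) lower, and the median log2 fold change of all genes tested was 0.01. Among the called genes, 555 (4.49% of those tested) differed more than 2-fold, 244 upward and 311 downward. In CPM, every SAN library lay above every plain library in 2556 genes (20.7%), and every one below in 1513 (12.2%). Of the 1392 called genes 1381 did not overlap. CPM used library totals without the scaling (TMM) of the fold changes, so the 2 directions of these counts are not on the same footing as the calls. Protein-coding genes were called in 12% of cases, lincRNAs in 7.54% and processed pseudogenes in 2.04%. The count was 713 without E3B2SAN, 857 without E3_1, 614 without E3_2 and 846 without E3_3, and 1452 and 1747 without E3B1SAN and E3B3SAN. All log2 fold changes below are SAN minus plain titles.

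**Figure D1:**
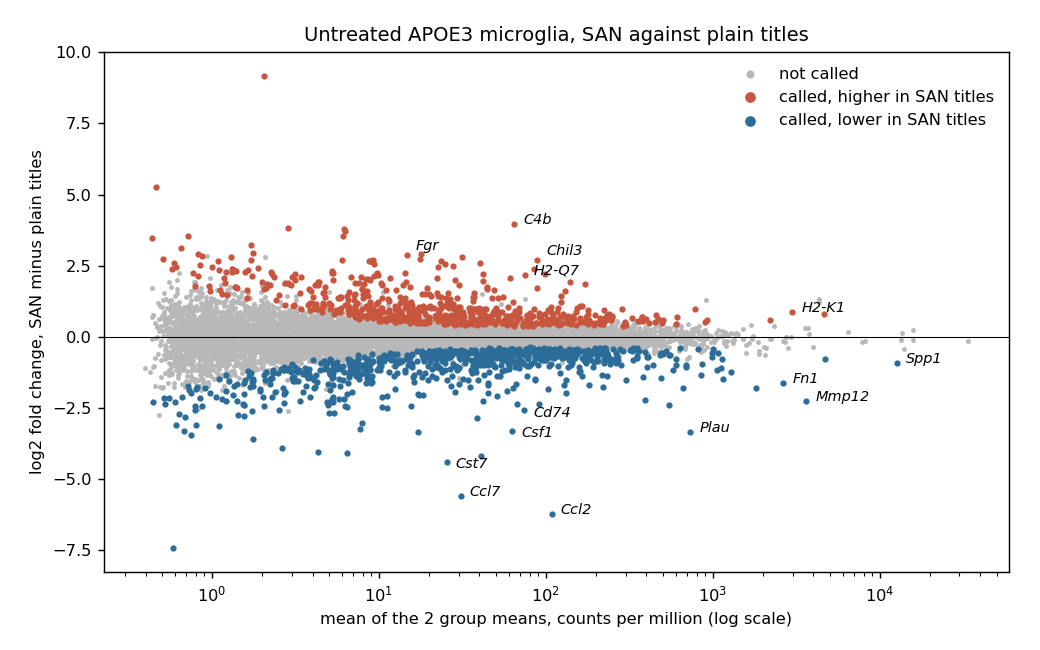
Log2 fold change (vertical axis, SAN minus plain) against mean CPM (horizontal axis, log scale) for the 12358 genes tested in untreated APOE3 microglia. The 630 genes higher and 762 genes lower in SAN libraries are coloured and are spread over most of the range of levels, with Ccl2 at -6.23 and C4b at 3.97.

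Monocyte-attracting chemokines and the microglial growth factor Csf1 were among the genes with the widest gaps, of those with a mean of at least 5 CPM. Ccl2, a ligand of the monocyte receptor Ccr2 (chromosome 11, 82035571 to 82037453, GRCm38), had 3.82, 2.92 and 2.05 CPM in the SAN libraries and 152, 237 and 252 CPM in the plain libraries. The 3 plain libraries were far above all SAN libraries, with a log2 fold change of -6.23 ± 0.28 (SE, n = 3 and 3, adjusted p = 1.4e-06), or 75.2-fold lower in SAN libraries. Ccl7, a related ligand encoded next to it, had 0.798, 0.884 and 2.31 CPM against 41.5, 76 and 63.8 CPM (log2 fold change -5.59 ± 0.35, adjusted p = 1.6e-05). Ccl12, a further ligand of that receptor, was also lower (-4.09 ± 0.33, adjusted p = 7.3e-05), at 0.462 to 0.884 CPM against 8.31 to 14.5 CPM.

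The difference reached more of the Ccl genes of chromosome 11, a set looked at after the values were seen. Of 9 tested, 7 were lower, against 6.17% of all genes, none was higher, and their median log2 fold change was -1.81. Ccl3 and Ccl4, macrophage inflammatory proteins, were lower by -1.28 and -1.81, and Ccl6 and Ccl9, ligands of Ccr1, by -1.78 and -1.81. Ccl8 (-0.38, adjusted p = 0.36) and Ccl5 (0.14, adjusted p = 0.9) did not pass the test. Ppbp and Pf4, platelet-type CXC chemokines, were lower as well (-4.06 and -1.48), and Pf4 had 557 to 756 CPM in SAN libraries and 1503 to 1786 CPM in plain libraries.

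Csf1, the growth factor that microglia need through Csf1r, had 9.97, 12.7 and 13.2 CPM in SAN libraries and 130, 111 and 102 CPM in plain libraries (-3.32 ± 0.14, adjusted p = 1e-06). All SAN libraries were far below all plain libraries, while its receptor Csf1r overlapped (2176 ± 172 and 2193 ± 99.6 CPM, SD, n = 3 each, adjusted p = 0.74). In the growth factor and TGF-beta list, 6 of 22 tested genes were lower and 2 higher, with a median of -0.28. The shares were 27.3% and 9.09%, against 6.17% and 5.1% of all genes. Etv5 and Dusp6, read-outs of ERK signalling, were lower (-1.02 and -0.61), as was the shared beta chain of the GM-CSF receptor Csf2rb (-0.78), and Tgfbr2 was higher (0.52). Neither higher gene was called without E3B2SAN or without any 1 plain library.

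**Figure D2:**
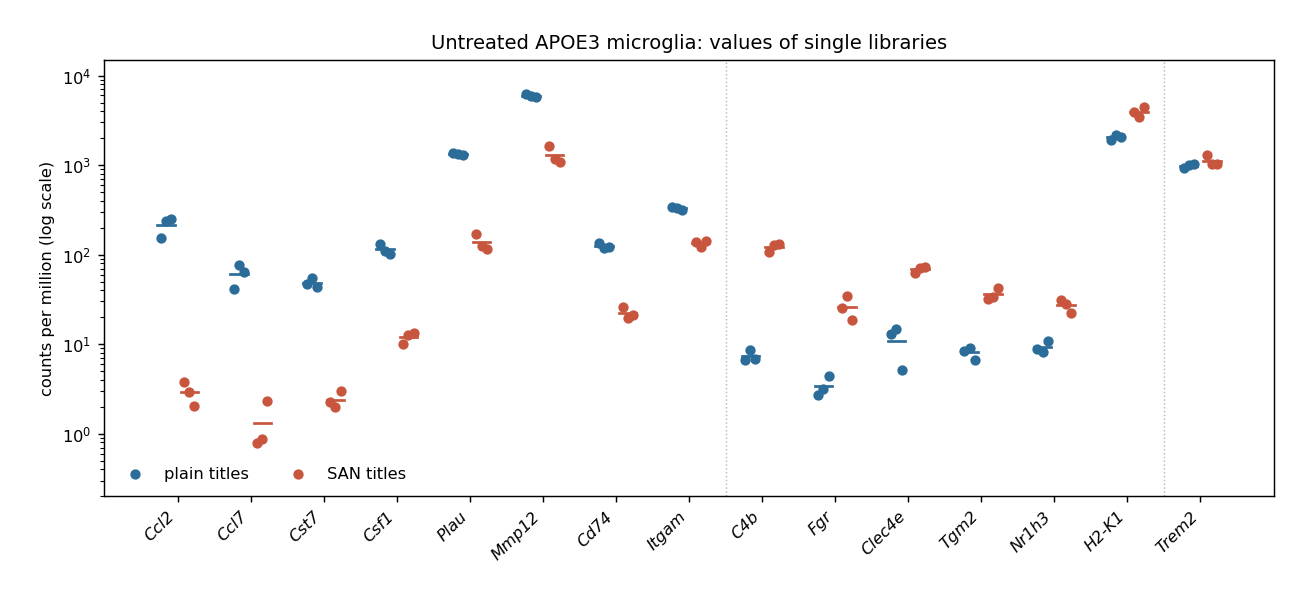
CPM (log axis) of 15 genes in each of the 3 plain and 3 SAN libraries of untreated APOE3 microglia, with short lines at the group means. The 8 genes on the left were lower in SAN libraries, the following 6 higher, and Trem2 on the right did not pass the test; no called gene shown overlapped.

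In the matrix and adhesion list 13 of 26 tested genes were lower and none was higher, against 6.17% lower over all genes, and the list's median was -0.76. The lower count was 13 to 17 when each library was left out in turn; 2 genes were higher without E3B1SAN, and DESeq2 called 1 higher. Plau, urokinase, which activates plasmin (chromosome 14, 20836660 to 20843385), had 171, 125 and 115 CPM against 1365, 1337 and 1295 CPM. All SAN libraries lay far below all plain libraries (log2 fold change -3.34 ± 0.18, adjusted p = 5.8e-06), and its receptor Plaur was lower too (-1.7).

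Mmp12, macrophage elastase (chromosome 9, 7344381 to 7369499), was among the abundant transcripts, with 1620, 1165 and 1094 CPM against 6212, 5868 and 5806 CPM (-2.26 ± 0.18, adjusted p = 7.6e-05). Mmp13, a collagenase encoded nearby, was lower by a like amount (-2.21), as were the gelatinase Mmp9 (-2.85), Mmp8 (-1.06) and Mmp19 (-0.71). Fn1, fibronectin, had 1128, 1848 and 1011 CPM against 4549, 3807 and 3485 CPM (-1.63 ± 0.22, adjusted p = 0.0014), and Spp1, osteopontin, 9023 against 16283 CPM on average (-0.91, adjusted p = 0.0074). Integrin subunits were divided: Itgb3, Itgax and Itga6 were lower (-2.27, -2.34 and -0.8), and Itgav (0.57), Itgb1 (-0.05) and Itga4 (0.37) did not pass the test. Mmp14 (-1.46) and Cd44 (-0.17) did not pass it either.

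The 100 bases before the RefSeq start sites of Mmp12 and Mmp13 are shown because both genes were lower together and both stretches hold the AP-1 letters TGANTCA, in capitals, read on the strand of the gene (RefSeq, GRCm38.p6; chr9:7347274-7347373 and chr9:7272414-7272513, plus strand).
Mmp12: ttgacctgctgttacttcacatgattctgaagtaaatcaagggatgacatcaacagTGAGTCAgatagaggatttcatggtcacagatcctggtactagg
Mmp13: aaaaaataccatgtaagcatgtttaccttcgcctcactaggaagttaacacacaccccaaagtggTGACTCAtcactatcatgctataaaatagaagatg
RefSeq starts can differ from the GENCODE positions given elsewhere, and the Mmp12 stretch lies inside the GENCODE interval printed above. The letters end 38 and 29 bases before the start site. Windows of 300 bases around the start were at hand for 9113 of the 12358 tested genes. On either strand, TGANTCA lay in 6.28% of these windows and in 4 of the 7 called matrix genes that had one. A match is a description of the letters and not evidence of binding.

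Among genes that mark disease-associated microglia, a state described around amyloid plaques, 8 of 28 tested were lower and 1 higher. The shares were 28.6% and 3.57%, against 6.17% and 5.1% of all genes, and the median was -0.20. Without E3B2SAN or without E3_2, 5 were lower. Cst7, cystatin F, an inhibitor of lysosomal proteases, had 2.28, 1.97 and 2.97 CPM in SAN libraries and 47.2, 54.6 and 43.9 CPM in plain libraries (-4.4 ± 0.18, adjusted p = 7.2e-07). The groups were far apart. Ccl6, Itgax, Lpl, a lipase, and Cd52 were lower (-1.78, -2.34, -0.76 and -0.84). Axl, a receptor for apoptotic cells, was higher (0.99, 1061 against 510 CPM).

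The receptor Trem2 (0.12, adjusted p = 0.63), its adaptor Tyrobp (0.06) and Gpnmb (-0.44) did not pass the test. The mouse gene Apoe had 14.8, 15.4 and 20.1 CPM against 12.3, 11.4 and 12.1 CPM; the SAN libraries were all above, but the difference of 0.42 ± 0.15 did not pass (adjusted p = 0.1). Of 20 tested genes of homeostatic microglia 4 were called (20%, against 11.3% of all genes), and the median was -0.07. Ltc4s (1.89) and Selplg (0.68) were higher, and Fcrls (-0.61) and Mef2c (-0.46) lower. None of the 20 was called lower without E3B2SAN, E3_2 or E3_3. Selplg lost its call without any 1 library other than E3B3SAN, and Ltc4s kept it without each library in turn. P2ry12 (0.05, adjusted p = 0.89), Sall1 (-0.16, adjusted p = 0.71), Cx3cr1 (-0.51, adjusted p = 0.059) and Tmem119 (-1.18, adjusted p = 0.073) did not pass.

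Interferon receptors switch on the interferon-stimulated genes through factors that include Stat2 and Irf9. Of 53 tested, 24 were lower in SAN libraries (45.3%, against 6.17% of all genes) and none was higher. Of the 53 genes, 51 had a negative log2 fold change, and the median was -0.55; 16 to 26 were lower when each library was left out in turn. Mx1, an antiviral GTPase (chromosome 16, 97447035 to 97462907), had 14.4, 25.7 and 14.5 CPM against 50.9, 47.3 and 50.9 CPM (-1.52 ± 0.21, adjusted p = 0.0014). Isg15, a ubiquitin-like modifier (chromosome 4, 156199424 to 156200818), had 22.3, 26 and 19.2 CPM against 36.9, 52.9 and 54.8 CPM (-1.16 ± 0.18, adjusted p = 0.003). In both genes the groups did not overlap.

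Oasl2, of the oligoadenylate synthetase family, was lower by -1.06 ± 0.14 (adjusted p = 0.0011), Ifit2 by -1.51, Rsad2, viperin, by -1.17, and the signalling component Stat2 by -0.81. Irf7 (-0.35) and Irf9 (-0.04) did not pass the test, nor did the chemokine Cxcl10, which had 1.42 to 2.84 CPM against 0.883 to 3.64 CPM (-0.47 ± 0.49, adjusted p = 0.6). Zbp1, a sensor of left-handed nucleic acids, was lower (-0.97, adjusted p = 0.0027). It was 1 of 2 genes called among 13 tested in the cGAS-STING list (15.4%, against 11.3% of all genes). The other, Nlrx1, was higher (0.57), and was not called without E3B2SAN or without any 1 plain library. The p200 genes of chromosome 1, interferon-inducible DNA-binding proteins, were looked at after the values were seen. Of these 12, 7 were lower, against 6.17% of all genes, and none higher, with a median of -0.64. The p200 genes are neighbours and close copies of each other, so the split of reads among them is uncertain.

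The following upstream stretches are shown because these genes were lower together and each stretch holds the core of an interferon-stimulated response element, GAAANNGAA on either strand, in capitals (RefSeq, GRCm38.p6, all minus strand; chr4:156200819-156200918, chr11:78984925-78985024, chr1:173491319-173491418 and chr1:173942493-173942592).
Isg15: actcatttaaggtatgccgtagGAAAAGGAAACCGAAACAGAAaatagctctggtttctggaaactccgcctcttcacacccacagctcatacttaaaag
Lgals9: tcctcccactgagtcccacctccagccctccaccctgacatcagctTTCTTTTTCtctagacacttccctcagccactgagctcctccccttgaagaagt
Ifi206: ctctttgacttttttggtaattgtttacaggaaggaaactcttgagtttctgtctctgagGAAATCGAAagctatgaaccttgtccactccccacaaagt
Ifi203: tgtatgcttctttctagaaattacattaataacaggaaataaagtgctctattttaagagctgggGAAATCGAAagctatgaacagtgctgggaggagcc
The Isg15 stretch holds 3 overlapping matches, and the others hold 1 each. The log2 fold changes of these genes were -1.16, -0.72, -1.36 and -1.01. The letters lay in 8.94% of the windows of tested genes, in 25 of 39 interferon-stimulated genes with a window (64.1%) and in 10 of the 19 called ones (52.6%).

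In the other groups of the table the median of the interferon-stimulated genes had the opposite sign between the same titles. With tau, every SAN library had a higher mean log2 level than every plain one, at 7.93 to 8.09 against 6.6 to 7.67 in APOE3 and 8.04 to 8.17 against 7.2 to 7.38 in APOE3S/S. The tau medians were 0.58 and 0.70, with 3 of 53 genes higher in APOE3 (21.7% of all genes were called) and 11 in APOE3S/S (18.5%), and none lower. In untreated APOE3S/S microglia the sign changed with 1 library. There, 2 SAN libraries were compared with 2 plain libraries, none of which entered the APOE3 comparison, and 1585 of 14033 genes (11.3%) were called. The 53 genes had a median of 0.94, with 8 higher and none lower. Their mean log2 level was 5.31, 5.75 and 5.53 in the APOE3 SAN libraries and 5.95, 6.1 and 6.13 in the APOE3 plain libraries, and in APOE3S/S 5.77 and 7.86 in SAN libraries and 5.46 and 6.5 in plain libraries. The APOE3S/S groups overlapped, and the library E3CB3SAN stood far above all the other untreated ones, with 227 CPM of Mx1 and 41.3 CPM of Cxcl10.

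Without E3CB3SAN the median in APOE3S/S was -0.48, with 1 gene lower and none higher, and without the other SAN library, E3CB2SAN, it was 1.56 with 46 higher. The difference between the genotypes was tested directly, as an interaction, and no gene of 14033 (0%) passed in edgeR, with 1456 at an unadjusted p below 0.05, a smallest adjusted p of 0.28, 54 genes called by DESeq2 and 0 by voom. All 53 interferon-stimulated genes were below 0 in that difference, 41 of them at an unadjusted p below 0.05. Without E3CB2SAN 44 of the 53 were called, and without E3CB3SAN none was and the median was -0.14.

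**Figure D3:**
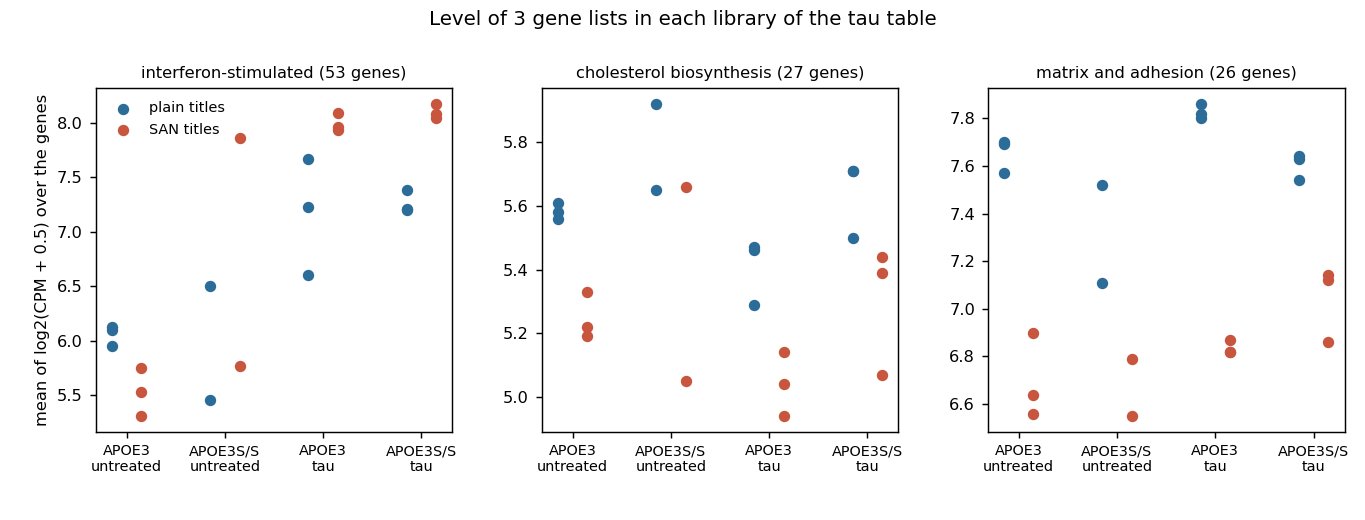
Mean of log2(CPM + 0.5) over the genes of 3 lists (vertical axis) in each of the 22 libraries of the table, by genotype and treatment; each point is a library. In untreated APOE3 the 3 SAN libraries lie below the 3 plain libraries in each list, and in untreated APOE3S/S the interferon-stimulated level of 1 SAN library is 7.86 and of the other 5.77.

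Genes of the inflammatory and NF-kB list moved in both directions, 7 higher and 6 lower of 36 tested, with a median of 0.00. The shares were 19.4% and 16.7%, against 5.1% and 6.17% of all genes. Without E3B3SAN, 10 were lower. The lower ones were Ccl2, Ccl7, Ccl12, Ccl3, Ccl4 and the acute-phase protein Saa3 (-2.4). The higher ones included feedback inhibitors and subunits of NF-kB itself: Nfkbie (1.03), Nfkbiz (0.87), Nfkbia (0.73), Relb (0.65) and Nfkb2 (0.46), with the receptor Tlr2 (0.81 ± 0.1, adjusted p = 0.001, 311 against 169 CPM) and the adhesion molecule Icam1 (0.72). Il1b had 16.4, 21.4 and 23.5 CPM against 15.4, 5.29 and 3.83 CPM; all SAN libraries were above, but the difference of 1.25 ± 0.4 did not pass (adjusted p = 0.075). Tnf overlapped (-0.23 ± 0.25, adjusted p = 0.62).

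Immediate-early genes, which respond within minutes to stimulation, were lower in 7 of 22 and higher in 2, with a median of -0.11. The shares were 31.8% and 9.09%, against 6.17% and 5.1% of all genes. Without any 1 plain library, 4 were lower. Egr1, a transcription factor, had 25, 23.3 and 21.5 CPM against 55.5, 47.6 and 55 CPM (-1.24 ± 0.13, adjusted p = 0.00038), and Egr2 (-0.98), Egr3 (-2.6) and Myc (-1.93) were also lower. The orphan receptor Nr4a1 went the other way, with 20.7, 21.5 and 27.7 CPM against 8.05, 5.63 and 3.83 CPM (1.92 ± 0.23, adjusted p = 0.00067). Fos (0.29), Jun (-0.27) and Atf3 (-0.42) did not pass. No heat shock gene of 12 passed in edgeR, with 4 at an unadjusted p below 0.05, 1 called by DESeq2 and 0 by voom.

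In the cholesterol biosynthesis list 13 of 27 tested genes were lower and 1, the desaturase Scd1, higher (1.19), and the median was -0.44. The lower share was 48.1%, against 6.17% of all genes. With each library left out 6 to 13 were lower, with 6, 8, 6 and 7 without E3B2SAN, E3_1, E3_2 and E3_3. Sqle, squalene epoxidase, had 45.4, 39.1 and 42.1 CPM in SAN libraries and 75.8, 75.8 and 76.1 CPM in plain libraries (-0.91 ± 0.12, adjusted p = 0.00092). Hmgcs1, a synthase early in the route, had 84.3, 72.4 and 79.6 against 109, 105 and 113 CPM (-0.53, adjusted p = 0.016). Hmgcs1 lost its call without E3B2SAN, E3_2 or E3_3. The groups did not overlap in either enzyme, with fitted folds of 1.88 and 1.44.

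Cyp51, Lss, Idi1 and Sc5d, further enzymes of the route, were lower by -0.74, -0.75, -0.64 and -0.49, and the regulator Srebf2 by -0.4. Their upstream stretches are shown because the 4 enzymes were lower together and each holds CCAAT on either strand, in capitals, the box that NF-Y reads (RefSeq, GRCm38.p6; chr13:8885506-8885605 plus, chr10:76531505-76531604 plus, chr5:4104698-4104797 minus and chr9:42264301-42264400 minus).
Idi1: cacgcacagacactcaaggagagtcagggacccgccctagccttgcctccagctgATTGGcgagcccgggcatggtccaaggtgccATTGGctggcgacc
Lss: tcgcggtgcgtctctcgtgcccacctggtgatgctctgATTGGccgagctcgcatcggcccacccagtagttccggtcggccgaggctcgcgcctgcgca
Cyp51: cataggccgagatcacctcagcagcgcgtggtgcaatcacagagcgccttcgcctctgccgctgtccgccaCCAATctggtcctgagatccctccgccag
Sc5d: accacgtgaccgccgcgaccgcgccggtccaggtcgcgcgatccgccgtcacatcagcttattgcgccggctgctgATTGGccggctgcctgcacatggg
CCAAT is a common string: it lay in 43% of the windows of tested genes, in 15 of 17 genes of the list with a window and in all 8 called ones.

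In the LXR and lipid handling list 4 of 24 tested genes were higher and 2 lower, with a median of 0.20. The shares were 16.7% and 8.33%, against 5.1% and 6.17% of all genes. Without E3B3SAN, 8 were higher. Nr1h3, which encodes the sterol-sensing receptor LXR-alpha, had 31.4, 27.8 and 22.2 CPM against 8.73, 8.21 and 10.8 CPM (1.5 ± 0.19, adjusted p = 0.00082). All SAN libraries were above all plain libraries. Pltp, a phospholipid transfer protein and LXR target, had 88, 90.1 and 92 CPM against 49.5, 47.2 and 44.8 CPM (0.87 ± 0.1, adjusted p = 0.00063), and Abcg1, a sterol exporter, and Mylip, a ubiquitin ligase, were higher too (0.64 and 0.75). Abca1, a further exporter (0.56), and Srebf1 (0.04) did not pass.

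In the MHC class I list 5 of 21 tested genes were higher (23.8%, against 5.1% of all genes) and none lower. The median was 0.12, and 5 were higher with each library left out. H2-K1, a heavy chain (chromosome 17, 33996017 to 34000347), had 3875, 3458 and 4483 CPM against 1889, 2182 and 2051 CPM (0.88 ± 0.14, adjusted p = 0.003). H2-D1 was higher by 0.79, H2-Q4 by 1.08, and H2-Q6 and H2-Q7 by 2.2 and 2.18. H2-Q7 had 90.6, 76.4 and 204 CPM against 26.3, 29.2 and 21.7 CPM. B2m (0.31), the peptide transporter Tap1 (0.09) and the regulator Nlrc5 (-0.53) did not pass.

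The H2-K, H2-D and H2-Q genes were near-identical copies in places, and 7 of 8 tested were higher, against 5.1% of all genes. Reads may be shared among these H2 genes. In class II, Cd74, the invariant chain, had 25.7, 19.5 and 21 CPM against 136, 120 and 122 CPM (-2.57 ± 0.15, adjusted p = 7.1e-06), far lower in every SAN library. The other 6 tested class II genes did not pass. The alpha and beta chains H2-Aa, H2-Ab1 and H2-Eb1 were too low to be tested.

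The complement gene C4b (chromosome 17, 34728380 to 34743882), a subunit of the classical pathway, had the largest fold upward of the genes of at least 5 CPM. It had 108, 127 and 130 CPM in SAN libraries and 6.65, 8.62 and 6.9 CPM in plain libraries, 15.6-fold higher (3.97 ± 0.14, adjusted p = 5.4e-07). C4a is a close copy with its own values (-0.12, adjusted p = 0.93), so the split of reads between them is uncertain. Cfb, factor B, was also higher (2.41, 3.23 against 0.533 CPM), and Itgam, the alpha chain of complement receptor 3, was lower, at 137, 122 and 143 against 338, 331 and 316 CPM (-1.36 ± 0.11, adjusted p = 8.2e-05), together with its partner Itgb2 (-0.58). C1qa (-0.39), C1qb (-0.3) and C3 (-0.25) did not pass.

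Surface receptors moved both ways, 8 lower and 4 higher of 30, with a median of -0.01. The shares were 26.7% and 13.3%, against 6.17% and 5.1% of all genes. Without E3B2SAN, E3_2 and E3_3, 5, 4 and 5 were lower. The scavenger receptors Msr1 and Stab1 were lower (-1.17 and -1.24), with 643 to 698 against 1331 to 1525 CPM for Msr1. Of the Fc receptors, the inhibitory Fcgr2b was lower (-0.95) and the activating Fcgr4 higher (1.04). Clec4e, Mincle, a receptor for glycolipids, had 63.1, 71 and 73.2 CPM against 12.9, 14.8 and 5.15 CPM (2.58 ± 0.28, adjusted p = 0.00045), with no overlap.

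The remaining genes with the widest upward gaps belonged to no single list. Fgr, a Src-family kinase of myeloid cells, had 25.4, 34.1 and 18.6 CPM against 2.7, 3.14 and 4.46 CPM (2.87 ± 0.27, adjusted p = 0.00019). Sema3e, a guidance ligand, was higher by 3.8, Ms4a8a by 3.55, the adhesion receptor Adgre4 by 2.9, Tmem51 by 2.74, Cdc42ep2 by 2.7, caveolin Cav1 by 2.69 and Cd5l, a secreted macrophage protein, by 2.68. E3B3SAN was the lowest SAN library in each of them but Cav1, and stayed above every plain library. On the other side, Gm32089 (-3.02), the sialomucin Cd34 (-2.69) and the orphan receptor Gpr85 (-2.68) completed the 12 lowest.

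Of 39 tested cell cycle genes 12 were lower (30.8%, against 6.17% of all genes) and none higher, with a median of -0.38. Without E3B2SAN, E3_2 and E3_3, 7, 6 and 8 were lower. Cyclin Ccnd1 had 19.5, 26.5 and 22.4 CPM against 101, 133 and 99.1 CPM (-2.35 ± 0.16, adjusted p = 2.3e-05), and Uhrf1, which maintains DNA methylation, 6.33, 7.69 and 7.06 against 28.4, 29.3 and 25 CPM (-2.04 ± 0.14, adjusted p = 3e-05). Both were well apart in all libraries. The helicase subunits Mcm2, Mcm5, Mcm6 and Mcm7 were lower by -0.5 to -1.1, and Mki67 by -0.85 (adjusted p = 0.015, and 0.081 without E3_2). The mitotic genes Ccnb1 (-0.07), Plk1 (-0.06) and Bub1b (-0.06) did not pass. Among histone genes, looked at after the values were seen, 6 of 17 were higher, against 5.1% of all genes, and none lower. Levels of the called ones ranged widely. Hist1h1c had 440, 395 and 317 against 177, 182 and 203 CPM. Hist1h2ad had 0.741, 1.02 and 1.39 against 0.156, 0.227 and 0.126 CPM, where 3 counts are 0.156, 0.113 and 0.188 CPM.

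Metabolic and stress lists differed in their share of called genes, which was 11.3% over all genes. The share was 30.8% in the antioxidant list, 18.5% in glycolysis and 14.3% in the unfolded protein and integrated stress list. It was 17.2% in the lysosomal list, 6.67% in the iron list and 6.25% in nuclear oxidative phosphorylation. In the antioxidant list 7 of 26 were higher and 1 lower (median 0.04), among them the dismutase Sod1 (0.77) and glutathione reductase Gsr (0.59), but 1, 2, 0 and 3 were higher without E3B2SAN, E3_1, E3_2 and E3_3; the NRF2 target Nqo1 did not pass (0.13, adjusted p = 0.83). In glycolysis, the glucose transporter Slc2a1 was lower (-0.77) and the phosphofructokinase Pfkl higher (0.84), 3 lower and 2 higher of 27; 1 and 1 passed without E3_2. Of 28 genes of the unfolded protein and integrated stress responses 4 were lower, among them Pdia4 (-1.01) and asparagine synthetase Asns (-1.03); 8 were lower and 3 higher without E3B3SAN. The lysosomal list had 3 higher (Scarb2, 0.56) and 2 lower (Mitf, -0.51) of 29, none of them without E3_2, the iron list 1 lower of 15 (ceruloplasmin Cp, -0.71) and nuclear oxidative phosphorylation 2 higher of 32 (Ndufb3 and Sdha, both lost without any 1 library other than E3B3SAN). None of 36 cytosolic ribosomal protein genes passed in edgeR, with 1 at an unadjusted p below 0.05 and 0 called by DESeq2 or voom. None of 14 mitochondrial transcripts passed in edgeR, with 2 at an unadjusted p below 0.05, and 1 called by DESeq2 and by voom.

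**Figure D4:**
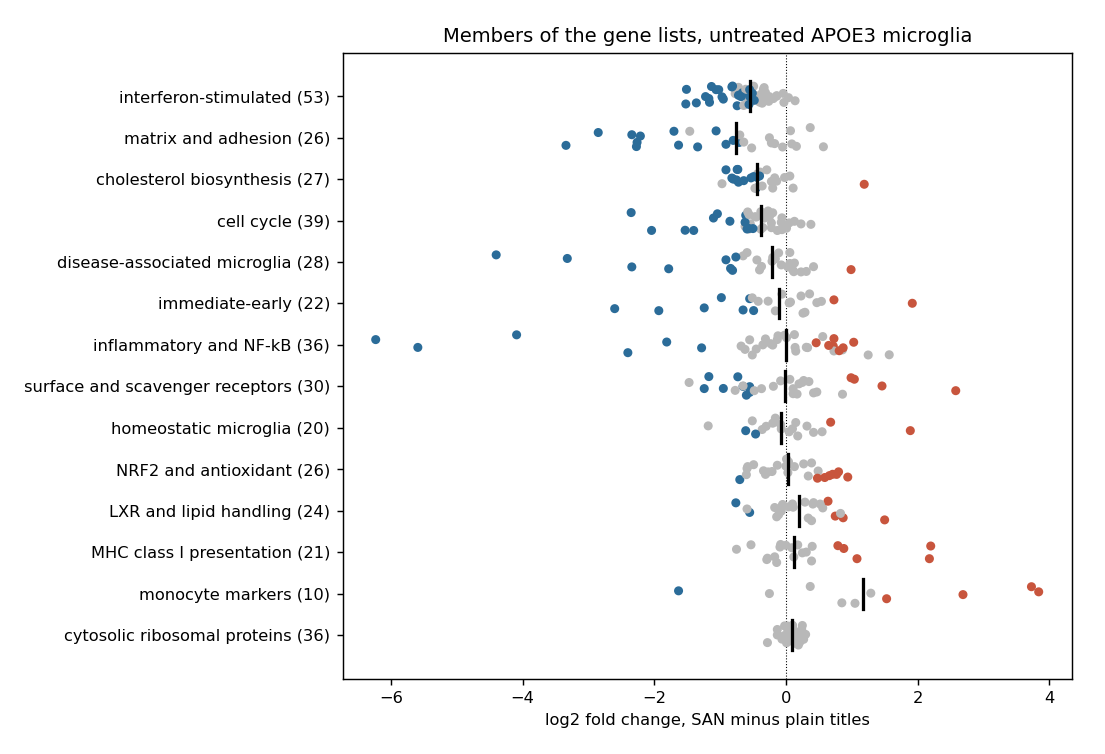
Log2 fold change (horizontal axis, SAN minus plain) of each tested member of 14 gene lists in untreated APOE3 microglia; blue and red points are members called lower and higher, grey points those not called, black bars the list medians, and numbers in brackets the members tested. Interferon, matrix and cell cycle lists hold called genes on the lower side only, and no ribosomal protein gene was called.

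Alternative activation genes, which IL-4 induces in macrophages, did not move together, with 38.5% of 13 tested called, against 11.3% of all genes. Chil3 and Tgm2 were higher (2.69 and 2.08), and Socs1, Mgl2 and Egr2 lower (-2.01, -3.58 and -0.98). Tgm2, a transglutaminase, had 32.1, 33.8 and 42.5 CPM against 8.42, 9.15 and 6.72 CPM (adjusted p = 4.8e-05). Arg1 did not pass (-0.07). Retnla was at 0 in the 3 SAN libraries and at 1, 11 and 1 counts in the plain libraries, too low for a fold; over the table it had a count in none of 11 SAN libraries and in all 11 plain libraries.

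Markers of other cell types were compared because a cell preparation can hold more than microglia. Monocyte markers moved with the titles, and of 10 tested 4 were higher (40%, against 5.1% of all genes). Among these were Ly6c2 (3.84), Treml4 (3.73) and Chil3 (2.69), while Fn1 was lower, and the median was 1.17. The summed level of the monocyte markers was lower in SAN libraries (1278 to 2364 against 3648 to 4686 CPM). Most of that sum was Fn1. Markers of border-associated macrophages summed to 2895 to 3603 against 5359 to 5757 CPM. Of 11 tested, Ccr1, Pf4 and Stab1 were lower (27.3%, against 6.17% of all genes) and none was higher. Cd163 (-1.47), Mrc1 (-0.37) and Folr2 (-0.07) did not pass. The median of the 11 was -0.07, with 6 log2 fold changes below 0 and 5 above. Stab1, the most abundant of these markers, had 604 to 982 against 1579 to 2016 CPM. In a bulk library fewer cells of a type and less RNA per cell cannot be told apart.

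Astrocyte markers summed to 56.8 to 72.2 against 39 to 52.7 CPM, with Aldoc and Slc1a3 higher (1.37 and 1.49, the latter lost without any 1 library), Gfap at 0.681 to 3.43 CPM and Gjb6 at 0. Oligodendrocyte markers summed to 193 to 225 against 236 to 280 CPM, most of it Mbp, with Enpp2, Bcas1 and Ugt8a lower (-3.34, -2.13 and -1.75). Enpp2 overlapped between the groups, and the other two were lost without any 1 library. Fibroblast and mural markers overlapped at 11.6 to 38 against 15.2 to 36.2 CPM, although Postn, periostin, was lower (-3.24 ± 0.29, adjusted p = 0.00015) at 1.39 to 1.71 against 8.88 to 16.9 CPM; Col1a1 did not pass (1.21, adjusted p = 0.43). Endothelial markers summed to 174 to 269 against 150 to 186 CPM, most of it Vwf (0.48, adjusted p = 0.044), with Cldn5 at 0. Vwf lost its call without E3B2SAN, E3B3SAN, E3_2 or E3_3. Neuronal markers summed to 3.17 to 5.88 CPM in all 6 libraries (Elavl4 lower by -1.97) and those of granulocytes and lymphocytes to 10.6 to 17.5 against 7.72 to 11 CPM, with 9 of 19 at 0, S100a8 higher (1.58) and Cd4 lower (-1.44). Elavl4 lost its call without any 1 library other than E3B3SAN, and Cd4 without E3B2SAN, E3_1 or E3_2. The part of these cell types in the results above was not tested.

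The same titles were compared in 3 further groups, which share no library with the APOE3 baseline. Of the 1392 genes called there, 91.2% had the same sign in untreated APOE3S/S microglia, against 65.7% of all 12358 genes. In both, 711 were called the same way, which is 51.1% of the APOE3 calls and 46.7% of the 1523 APOE3S/S calls among genes tested in both, and 5 were called in opposite directions (A930037H05Rik, Ifit1bl1, Pde7b, Slfn5 and Trim30d). Across the called genes, which were picked by their APOE3 values, the log2 fold changes of the genotypes had a Pearson correlation of 0.84. Across all 12358 genes it was 0.60. Both values are given as a description since genes of a library are not independent.

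In microglia given tau, 3052 of 14033 genes (21.7%) differed between the titles in APOE3 and 2593 (18.5%) in APOE3S/S. The signs of the baseline genes were shared by 84.1% and 82%, against 67.3% and 66.6% of all 12358 genes. The same way were called 57.3% and 48.6%, and 26 and 27 genes were called in opposite directions. All 4 comparisons called 455 genes the same way, 32.7% of the baseline calls. Plau was lower by -3.34, -3.03, -4.11 and -3.23 in untreated APOE3, untreated APOE3S/S, tau APOE3 and tau APOE3S/S, and C4b was higher by 3.97, 4.93, 4.36 and 4.59. Fgr (2.87, 4.61, 4.2 and 4.69), Nr1h3 (1.5, 1.86, 2.34 and 2.31), Csf1 (-3.32, -2.5, -2.22 and -1.87) and Sqle (-0.91, -0.99, -1.35 and -0.86) were also called in all 4.

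Other genes held their difference in part. Ccl2 was lower by -6.23, -4.18, -2.82 and -2.19, called in all 4, with values that were smaller in tau-treated cells. Mmp9 was called in the untreated groups (-2.85 and -1.71) and not with tau (-0.19 and 0.6). Nr4a1 was higher in untreated cells (1.92 and 1.94), lower in tau-treated APOE3 (-1.72) and not called in tau-treated APOE3S/S (-0.08). Il1b, which missed the threshold here, was called in the 3 others (2.56, 3.42 and 3.54). Whether these differences depended on tau was not tested.

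**Figure D5:**
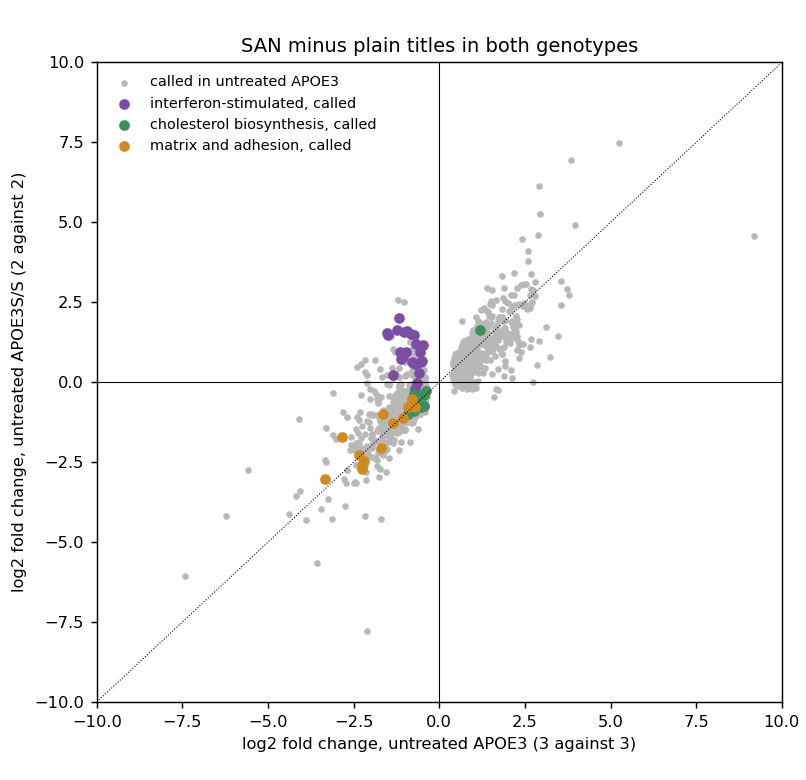
Log2 fold change, SAN minus plain, in untreated APOE3 (horizontal axis, 3 against 3 libraries) and untreated APOE3S/S (vertical axis, 2 against 2) for the 1392 genes called in untreated APOE3; the dotted line marks equal values. Matrix and cholesterol genes lie near that line, and most called interferon-stimulated genes lie above 0 on the vertical axis.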

How the data were processed

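The values are gene counts of the authors' deposited tau table, unnormalised whole numbers from QuantSeq 3′ forward libraries. The submitters' processing notes name GRCm38/mm10 and DESeq2 1.38.3; which aligner or counter was run, and its strand setting, is not given in the sources used here. Of 60976 rows, 6360 held no number, 88 were exact repeats, and 25 symbols (97 rows) listed every pairing of the values under SAN and plain titles, as a join by symbol gives; these were set aside, at most 0.509% of counts. Of 54378 genes kept, 28053 had a count and a GENCODE M21 position (GRCm38), and 1022 on X or Y were left out.

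The main fit used the 6 libraries: filterByExpr, TMM scaling and edgeR 4.0.16 (R 4.3.3) quasi-likelihood tests, with Benjamini-Hochberg adjustment over 12358 genes and a threshold of 0.05. The other comparisons came from 1 fit of 22 libraries in 8 groups. SE is the log2 fold change divided by the root of F. CPM uses library totals over kept genes, 14702542 to 26442440; 3 counts in a library are 0.113 to 0.204 CPM. List levels used log2(CPM + 0.5). Alternatives were RLE scaling, other filters, DESeq2 1.42.0, limma 3.58.1 (voom), thinning, a replicate block and leaving out libraries. The test was checked on simulated data, with counts drawn independently at the fitted spread and 200 of 12358 genes changed. It recovered 65% of changes of log2 1 and 94% of changes of log2 2, and 7.02% of its calls were false. The simulation held no variation shared by libraries, so the 7.02% is not the false share of the 1392 calls. Genes were named by rule: the 12 highest and 12 lowest called genes of at least 5 CPM without overlap, 2 per list with the smallest p, and a fixed set of 16. Others were named from lists after their values were seen. Members and lists were chosen with earlier results of these data known. Some genes that the rule names are not reported here.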

Additional observations from a re-analysis of the deposited data

How the results depend on the processing

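In untreated APOE3, 1392 genes were called. The count was 2018 without a low-count filter (1005 higher), 958 at a mean of at least 10 CPM, 1806 with DESeq2, 1358 with voom, 2176 with all 22 libraries in 1 fit (1097 higher) and 614 to 1747 with 1 library left out (270 to 819 higher, 344 to 928 lower). In untreated APOE3S/S it was 712 to 2319 with 1 library left out. For the difference between the genotypes, 443 genes were called without a filter, 45 of them interferon-stimulated, 54 with DESeq2 and 0 to 345 with 1 library left out. The 8 interferon-stimulated genes called higher in APOE3S/S were 44 without a filter, 14 with DESeq2 and 1 with voom. A fit that leaves out a library also holds fewer samples. The cause of these changes was not tested.

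With a replicate block 582 genes were called in untreated APOE3 (250 higher and 332 lower) and 1 in the difference between the genotypes. Deviations of same-numbered libraries from their group means had correlations of -0.29, 0.02 and -0.30. With 3 libraries in a group such deviations are tied to each other, so these values cannot decide whether the numbers pair the libraries. The labels do not say it either.

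Of the 72 named genes called, 56 stayed called without each library in turn. Among uncalled genes the log2 fold change turned sign for Nqo1 (-0.11 to 0.52 with 1 library left out), P2ry12 (-0.10 to 0.20), Sall1 (-0.28 to 0.10), Tnf (-0.52 to 0.03) and Trem2 (-0.02 to 0.20). Genes under 3 counts in a library, 0.113 to 0.204 CPM, cannot be compared at this depth.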

Other observations

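Markers of the choroid plexus, the epithelium that makes cerebrospinal fluid, were looked at after the values were seen. Ttr, transthyretin, had 0.912, 4.49 and 8.38 CPM under SAN titles and 4.47, 149 and 77.6 CPM under plain titles (log2 fold change -4.17 ± 1.00, adjusted p = 0.024 in edgeR's quasi-likelihood test). Enpp2, an enzyme secreted by that epithelium, had 0.798, 2.86 and 6.27 CPM against 1.92, 59.1 and 32.1 CPM. In both genes E3_2 and E3_3 were high, E3_1 was within the range of the SAN libraries, and the groups overlapped. Of the 16 markers, 4 were tested and 2 called, and without Ttr and Enpp2 they summed to 15.4, 15.6 and 11.6 CPM against 15.9, 27.6 and 21.6 CPM. Most of that sum was Trpv4, at 14.2, 14.3 and 8.65 CPM against 15.5, 14.7 and 13.1 CPM. Among the low markers, Tmem72 had 0.114, 0.136 and 0.33 CPM against 0, 2.08 and 1 CPM. Sostdc1 had 0 in all SAN libraries against 0, 2.34 and 0.502 CPM. Calml4 was not raised in E3_2 and E3_3 (0.171, 0.204 and 0.066 CPM against 0, 0.189 and 0 CPM). The part of such cells in the other results was not tested.

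Among these 6 libraries the low transcripts I830127L07Rik and Gm6093, picked by hand, had counts under 1 kind of title only. How many of all genes did so is not given here. I830127L07Rik, a pseudogene, had 3.53, 5.92 and 2.77 CPM under SAN titles and 0 in all 3 plain libraries, at least 21.6-fold higher against a floor of 3 counts per library. Over the 22 libraries of the table it had a count in 11 of 11 SAN libraries and 8 of 11 plain ones. Gm6093, a lincRNA, was at 0 in the 3 SAN libraries and at 1.04, 0.945 and 1.51 CPM in the plain ones, at least 5.7-fold lower. Over the table it had a count in 7 of 11 SAN libraries and in 11 of 11 plain ones.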
